A study of Homo sapiens with 18 samples.

Results

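EGR1, EGR2, EGR3, IER2, IER3, ARC, NR4A1 and SRF, a set of early genes of the serum response, were followed across 6 groups of SW620 libraries. They were chosen by name and are 8 of the 26485 genes in the counts file. All 8 are among the 12832 genes that passed the filter on low counts, which asked for CPM (counts scaled to a common library size) above 1 in at least 3 libraries. ARC and EGR2 were low in unheated cells with scramble siRNA, where ARC was above 1 CPM in 1 of 3 libraries and EGR2 in 2 of 3, so these genes passed mainly through other groups. SW620 is an established human colon cancer line. The cells carried scramble siRNA or siLonp1, siRNA against the mRNA of the mitochondrial protease LONP1 (the paper names 2 and does not say which the RNAseq used), and were either kept at 37 °C (Ctrl), heated to 42 °C for 1 h (HS), or heated in that way and given 1 h at 37 °C afterwards (HS+REC). Each group has 3 libraries, described in the paper as independent biological replicates, with between 30815860 and 47279297 counts in a library. The comparisons ask what heat, the hour after it and silencing of LONP1 did to the mRNA of these genes.

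Immediate early genes are transcribed within minutes of a growth factor or a stress, from factors already present in the cell and without new protein synthesis. ERK and stress kinases phosphorylate ternary complex factors such as ELK1, which bind beside SRF (serum response factor) at the CArG box, while a separate set of SRF cofactors follows the state of actin. The mRNAs are short-lived, and the response also induces its own brakes, among them phosphatases of the DUSP family and the NAB corepressors of EGR proteins. In the gut epithelium, ligands of the EGF receptor are among the signals that start it.

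The CArG box is the element that SRF binds, and since several members moved together with heat, their promoter sequences are shown with it. RefSeq promoter windows of build GRCh38.p14, from 250 bases before to 50 bases after an annotated start, were matched by symbol for 5 members with 9 windows in all, namely EGR1, EGR2, IER2, NR4A1 and SRF. No window was matched for EGR3, IER3 and ARC. With both strands searched, 3 of the 9 windows held a CArG box, against 454 of 35116 promoters of the same length (1.29%). EGR1 held 2 boxes, starting at -105 and -83 from its start. SRF itself held 2 boxes in 1 of its 2 windows, starting at -30 and -10, and EGR2 held 1 box at -71 in 1 of its 3 windows. The stretches below lie at chr5:138465364-138465393 and chr5:138465386-138465415 on the plus strand for EGR1, at chr6:43171229-43171258 and chr6:43171249-43171278 on the plus strand for SRF, and at chr10:62816418-62816447 on the minus strand for EGR2, with the CArG box in capitals.
EGR1 -105: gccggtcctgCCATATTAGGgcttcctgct
EGR1 -83: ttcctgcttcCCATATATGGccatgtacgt
SRF -30: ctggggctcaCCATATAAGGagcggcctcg
SRF -10: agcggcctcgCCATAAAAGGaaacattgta
EGR2 -71: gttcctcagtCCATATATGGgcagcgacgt
The core of the EGR1 box at -83 and that of EGR2 at -71 are the same 10 bases. The window of IER2 and the 2 windows of NR4A1 held no CArG box. Other motifs searched on both strands were the EGR site GCGTGGGCG (0.795% of all promoters), the inverted repeats GAANNTTC (6.77%) and TTCNNGAA (7.74%) of heat shock elements, the cAMP response element TGACGTCA (1.85%) and the NR4A site AAAGGTCA (1.22%), and 0 of the 9 windows held any of these letters. A match is a description, not a site or a cause.

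**Figure D1:**
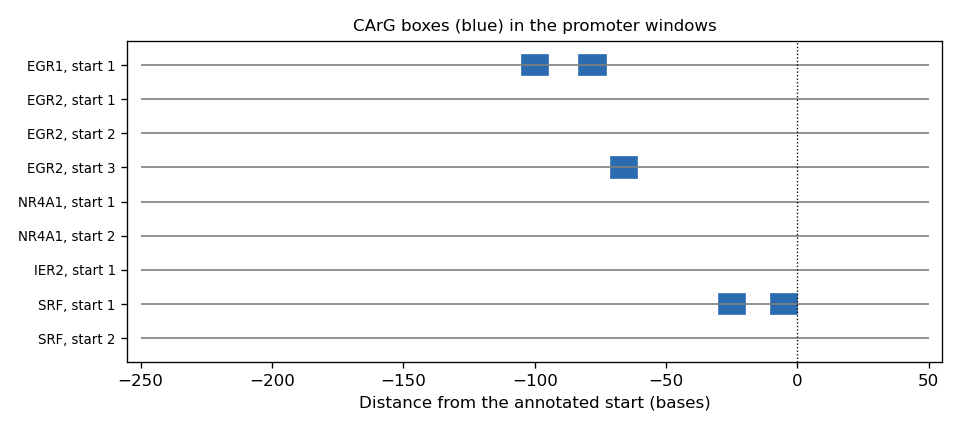
Positions of CArG boxes in the 9 RefSeq promoter windows of 5 members, as bases from the annotated start; each line is a window and each mark a box. All 5 boxes lie within 105 bases before a start, in windows of EGR1, EGR2 and SRF.

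LONP1, the silenced gene, checks the labels. In Ctrl it stood at 223, 225 and 215 CPM in the libraries with scramble siRNA and at 19.4, 22.5 and 19.5 CPM with siLonp1. In HS these values were 219, 227 and 197 CPM against 11.8, 11.5 and 11.8 CPM, and in HS+REC 225, 197 and 233 CPM against 27.1, 25.6 and 28.9 CPM. Every siLonp1 library was far below every scramble library, as labelled, with log2 fold changes of -3.43, -4.19 and -3.01. LONP1 overlaps RPL36 on the opposite strand, and the paper does not state whether the counting used strand. Heat is checked by HSPA1A, HSPA1B, DNAJB1, HSPH1, BAG3 and HSPA8, chaperone and cochaperone genes of the heat shock response, and 6 of 6 were called higher in HS and in HS+REC of both arms. Their median log2 fold change was 4.92 for HS in scramble and 5.13 in siLonp1. HSPH1 rose more in siLonp1, with an interaction of 0.75 for HS and 0.60 for HS+REC (adjusted p = 0.000585 and 0.00626, edgeR quasi-likelihood with Benjamini-Hochberg). HSPA1A and HSPA1B are near-identical copies whose reads the counting could have split, so their separate values are uncertain.

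The cell type was checked against markers. All 8 colon epithelium markers passed the filter, with a summed level of 7904 to 10866.5 CPM in a library and KRT8, a keratin, as the most abundant at a mean of 5326 CPM. KRT20, a marker of differentiated epithelium, had a mean under 1 CPM in each group, and CDX2, an intestinal transcription factor, stood at 29.5 ± 0.938 CPM (SD, n = 3 libraries) in Ctrl scramble and at 15.8 ± 1.11 CPM in Ctrl siLonp1. CDH1, the epithelial cadherin, differed in the other direction, at 103 ± 8.27 and 158 ± 7.09 CPM (SD, n = 3 libraries), and the list summed to a mean of 8526 and 9415 CPM in these groups. Of 6 fibroblast markers 3 were under 1 CPM in every library, 1 of them at 0 throughout, and the list summed to 23.5 to 63.1 CPM with LUM at a mean of 20.8 CPM over all libraries. This sum had a mean of 44.2 CPM in Ctrl scramble, 43.7 in HS scramble and 62.4 in HS+REC scramble, and of 24.4, 28.5 and 48.1 CPM in the siLonp1 groups in the same order. Its genes did not move as one. LUM was at 32.4 to 36.2 CPM in the libraries of Ctrl scramble and at 10.9 to 13.5 CPM in those of Ctrl siLonp1, while the means of COL1A1 were 9.21 and 9.70 CPM and those of PDGFRB 1.17 and 2.63 CPM, and in HS+REC COL1A1 stood at 30.2 and 33.4 CPM, above LUM in the siLonp1 arm. Of 5 leukocyte markers 2 were under 1 CPM in every library and the list summed to 16.6 to 23.0 CPM, with CD68 at a mean of 13.4 CPM. LYZ and CD68 differed between the arms in opposite directions, with LYZ at means of 8.76 and 3.06 CPM and CD68 at 11.2 and 14.3 CPM in Ctrl scramble and Ctrl siLonp1. The 3 endothelial markers summed to 0.631 to 1.53 CPM, led by VWF at 0.838 CPM. The part of any of these in the results was not tested. In bulk RNA, fewer cells that express a gene and less of its RNA per cell cannot be told apart.

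In some groups 1 library was the highest or lowest for most of these genes. In Ctrl scramble, replicate 1 was the highest of 3 for 8 of 8 members. In HS scramble, replicate 2 was the highest for 7 members and replicate 3 the lowest for 7. In HS+REC siLonp1, replicate 1 was the highest for 7 members and replicate 3 the lowest for 6. In Ctrl siLonp1 and HS siLonp1 replicate 2 was the highest for 6 and 5 members, and in HS+REC scramble the highest library was split 2, 2 and 4 over the replicates. The results that turn on 1 of these libraries are therefore given with their values without it.

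**Figure D2:**
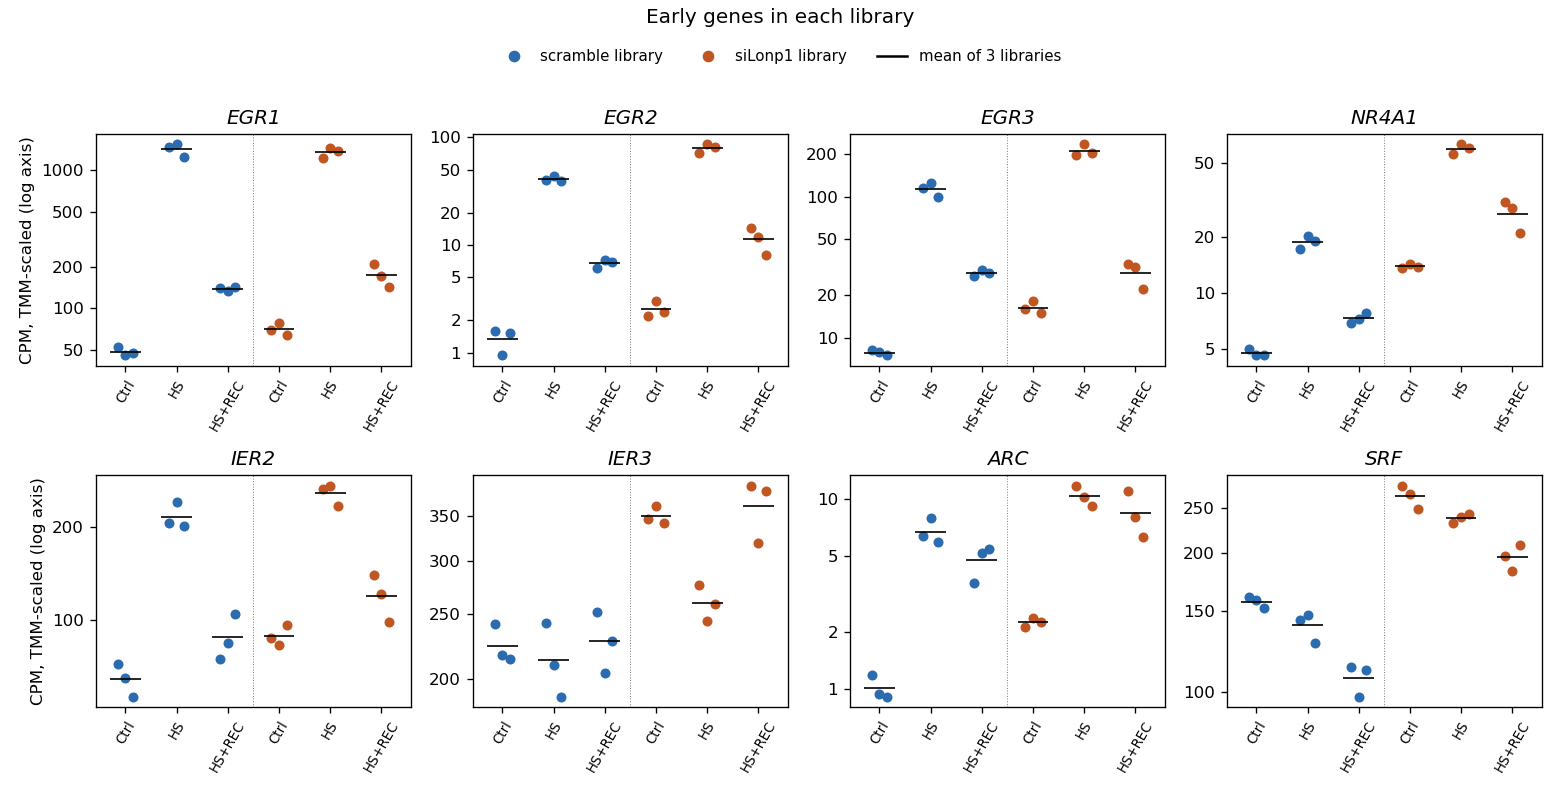
CPM of the 8 members in each of the 18 libraries on a log axis, with blue dots for scramble, orange dots for siLonp1 and a black line at each group mean. EGR1, EGR2 and EGR3 peak in HS in both arms, while IER3 and SRF do not.

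Per kilobase of the canonical transcript, the order of levels between the genes changed with heat. In Ctrl scramble IER3 was highest at 181 CPM per kb, followed by SRF at 37.0, IER2 at 30.5, EGR1 at 15.4, NR4A1 at 1.91, EGR3 at 1.74, EGR2 at 0.455 and ARC at 0.345 CPM per kb. After HS in scramble EGR1 led at 449 ± 50.2 CPM per kb (SD, n = 3 libraries), above IER3 at 173 ± 22.1 and IER2 at 102 ± 10.1 CPM per kb. SRF then stood at 32.9, EGR3 at 25.1, EGR2 at 13.8, NR4A1 at 7.61 and ARC at 2.28 CPM per kb. In HS+REC scramble IER3 led again at 185 CPM per kb, and EGR1 at 44.0 ± 1.20 and IER2 at 41.6 ± 7.08 CPM per kb differed by less than the larger SD. EGR2 at 0.455 ± 0.119 and ARC at 0.345 ± 0.0515 CPM per kb also differed by less than the larger SD in Ctrl scramble. In siLonp1 the leading gene was the same in each condition, with IER3 at 283 CPM per kb in Ctrl, EGR1 at 431 in HS and IER3 at 293 in HS+REC. In that arm, EGR2 stood at 26.8 ± 2.52 and NR4A1 at 24.2 ± 1.48 CPM per kb in HS. In HS+REC siLonp1 neighbouring levels differed by less than the larger SD for IER2 at 56.6 ± 9.73, EGR1 at 55.3 ± 10.6 and SRF at 46.2 ± 2.92 CPM per kb.

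Heat raised 6 of the 8 genes in both arms, namely EGR1, EGR2, EGR3, NR4A1, IER2 and ARC. A gene was called when its FDR was not above 0.05 and its fold change over 2, by edgeR's quasi-likelihood test in 1 model over all 18 libraries. By this rule 6 of 8 members were called higher in HS against Ctrl in scramble, where 2.94% of the 12832 genes were, and 6 of 8 in siLonp1, where 3.42% were. The median log2 fold change of the members was 2.36 in scramble and 2.16 in siLonp1, against -0.01 and 0.00 over all genes tested. An hour after heat, 4 members were still called higher than in Ctrl in scramble, where 3.78% of all genes were, and 3 in siLonp1, where 4.51% were. At any fold change past the FDR limit 6 members were higher in each arm, against 21.8% of all genes in scramble and 24.6% in siLonp1. Their median log2 fold change in HS+REC was 1.07 and 0.88. Between HS and HS+REC, 5 members fell with a fold change above 2 in scramble (0.842% of all genes) and 5 in siLonp1 (0.74%). HS and HS+REC are compared with the same Ctrl libraries, so these counts are not independent.

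EGR1 is a zinc finger transcription factor at the front of the response to growth factors, and lies on chromosome 5 of hg38 from 138465479 to 138469303. Its level was 52.4, 45.5 and 47.4 CPM in the Ctrl libraries of the scramble arm, 1462, 1533 and 1232 CPM in its HS libraries and 139, 134 and 141 CPM in its HS+REC libraries. In siLonp1 its level was 69.9, 77.8 and 63.4 CPM in Ctrl, 1214, 1455 and 1383 CPM in HS and 208, 169.7 and 142 CPM in HS+REC. HS libraries were far above all others in both arms, and HS+REC libraries lay between Ctrl and HS with no overlap. The rise with heat was 4.86 on the log2 scale (SE 0.12, adjusted p = 2.38e-19, edgeR quasi-likelihood with Benjamini-Hochberg) in scramble, a fold change of 29.1. In siLonp1 it was 4.26 (SE 0.12), a fold change of 19.2. From HS to HS+REC EGR1 had a change of -3.35 in scramble and -2.96 in siLonp1, the second largest fall of the 12832 genes in each arm, and it stayed above Ctrl by 1.51 and 1.30.

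EGR2 and EGR3 share the DNA-binding domain of EGR1. EGR2, on chromosome 10 from 62811996 to 62819167, was at 1.58, 0.947 and 1.54 CPM in the Ctrl libraries of the scramble arm, 40.0, 43.9 and 39.7 CPM in its HS libraries and 6.14, 7.24 and 6.99 CPM in its HS+REC libraries. In the siLonp1 arm it was at 2.21, 3.04 and 2.38 CPM in Ctrl, 71.6, 86.2 and 82.0 CPM in HS and 14.3, 11.9 and 8.05 CPM in HS+REC. Each siLonp1 group was above its scramble group in every library, and HS was the highest condition in both arms. EGR2 had the largest log2 fold changes of the 8 genes with heat, though in scramble within its SE of that of EGR1. It rose by 4.94 on the log2 scale in scramble (SE 0.18, adjusted p = 2.56e-16, edgeR quasi-likelihood with Benjamini-Hochberg) and by 4.97 in siLonp1 (SE 0.16), from 45 to 65 counts in a Ctrl scramble library. From HS to HS+REC it changed by -2.60 and -2.81, and it stayed above Ctrl by 2.34 and 2.16. A long noncoding RNA is annotated on the same strand at EGR2, and their reads may have been counted together.

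EGR3, on chromosome 8 from 22687659 to 22693480, was at 8.17, 7.87 and 7.52 CPM in the Ctrl libraries of the scramble arm, 115, 126 and 99.1 CPM in its HS libraries and 27.6, 30.3 and 28.6 CPM in its HS+REC libraries. The siLonp1 libraries had 15.9, 18.1 and 15.1 CPM in Ctrl, 197, 234 and 204 CPM in HS and 33.1, 31.7 and 22.0 CPM in HS+REC. The siLonp1 libraries were above the scramble libraries in Ctrl and in HS, whereas the arms overlapped in HS+REC. EGR3 rose by 3.85 on the log2 scale with heat in scramble and by 3.69 in siLonp1. From HS to HS+REC it had a change of -1.98 in scramble and -2.87 in siLonp1, and it stayed above Ctrl by 1.88 and 0.82. A long noncoding RNA overlaps EGR3 on the opposite strand.

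NR4A1 is an orphan nuclear receptor, on chromosome 12 from 52022832 to 52059507. Its level was 4.99, 4.63 and 4.66 CPM in the Ctrl libraries of the scramble arm, 17.4, 20.3 and 19.1 CPM in its HS libraries and 6.95, 7.24 and 7.82 CPM in its HS+REC libraries. In siLonp1 it measured 13.7, 14.4 and 13.9 CPM in Ctrl, 56.1, 63.3 and 60.6 CPM in HS and 30.9, 28.6 and 21.1 CPM in HS+REC. Each siLonp1 group lay above its scramble group by a wide margin, and the unheated siLonp1 libraries were close under the heated scramble libraries. Heat raised NR4A1 by 1.99 on the log2 scale in scramble and by 2.10 in siLonp1, fold changes of 3.97 and 4.30. It changed by -1.36 and -1.16 from HS to HS+REC, and in HS+REC it stayed above Ctrl by 0.63 in scramble and 0.94 in siLonp1. Without HS+REC siLonp1 replicate 3 this last value was 1.09, above a fold change of 2. An antisense gene, NR4A1AS, overlaps it.

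IER2, a nuclear protein of the early response, lies on chromosome 19 from 13150411 to 13154911. It was at 72.0, 64.9 and 56.5 CPM in the Ctrl libraries of the scramble arm, 206, 239.5 and 200.1 CPM in its HS libraries and 74.9, 84.3 and 104 CPM in its HS+REC libraries. The siLonp1 arm stood at 87.1, 82.6 and 96.3 CPM in Ctrl, 264, 271 and 233 CPM in HS and 139, 121 and 98.2 CPM in HS+REC. HS libraries were highest in both arms, and HS+REC was only a little above Ctrl. IER2 rose by 1.74 on the log2 scale with heat in scramble and by 1.53 in siLonp1. It changed by -1.29 and -1.10 from HS to HS+REC, and stayed above Ctrl by 0.45 and 0.43. Without HS+REC siLonp1 replicate 3 the fall in siLonp1 was -0.98, under a fold change of 2. There are 2 long noncoding RNAs on the opposite strand at IER2.

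IER3, which protects cells from some death signals, was not called higher after heat in either arm. It lies on chromosome 6 from 30743199 to 30744548 and was already high in unheated cells, at 242, 217 and 214 CPM in the Ctrl libraries of the scramble arm, 243, 210.0 and 189 CPM in its HS libraries and 252, 205 and 228 CPM in its HS+REC libraries. The libraries with siLonp1 had 347, 361 and 341 CPM in Ctrl, 276, 245 and 259 CPM in HS and 388, 319 and 381 CPM in HS+REC. The scramble conditions overlapped, and in siLonp1 the HS libraries were below those of Ctrl and HS+REC. Its log2 fold change with heat was -0.07 in scramble (SE 0.09, adjusted p = 0.581) and -0.43 in siLonp1 (SE 0.09, adjusted p = 0.000337), both by edgeR quasi-likelihood with Benjamini-Hochberg. The difference between these effects was -0.36 and did not pass the limit as an interaction (adjusted p = 0.149, again by edgeR quasi-likelihood with Benjamini-Hochberg), but it did without HS scramble replicate 3 at -0.45 (adjusted p = 0.0421). In HS+REC IER3 differed from Ctrl by 0.02 in scramble and 0.05 in siLonp1, within the spread of its libraries. From HS to HS+REC it differed by 0.09 in scramble and rose by 0.48 in siLonp1, and that difference of 0.39 did not pass as an interaction, though it did without HS scramble replicate 3 (0.48) and with no filter on low counts (0.37). IER3-AS1 and HCG20 overlap it on the opposite strand.

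ARC, the activity-regulated protein of neurons and a classic early gene, lies on chromosome 8 from 142611049 to 142614479. Its mean per kilobase was the lowest of the 8 in each group, but within the larger SD of that of EGR2 in Ctrl of both arms and in HS+REC siLonp1. It was at 1.19, 0.947 and 0.913 CPM in the Ctrl libraries of the scramble arm, 6.35, 7.93 and 5.91 CPM in its HS libraries and 3.63, 5.19 and 5.48 CPM in its HS+REC libraries. In siLonp1 cells it was at 2.11, 2.37 and 2.25 CPM in Ctrl, 11.7, 10.2 and 9.21 CPM in HS and 11.0, 8.01 and 6.29 CPM in HS+REC. Heated and recovered libraries were above Ctrl in both arms, and in siLonp1 those of HS and HS+REC overlapped. ARC rose by 2.74 on the log2 scale with heat in scramble and by 2.21 in siLonp1, from 38 to 49 counts in a Ctrl scramble library. In HS+REC it still stood above Ctrl by 2.23 and 1.91. Its change from HS to HS+REC was -0.51 in scramble (SE 0.17, adjusted p = 0.029) and -0.30 in siLonp1 (SE 0.16, adjusted p = 0.16) by edgeR quasi-likelihood with Benjamini-Hochberg. Both turned on single libraries, since the first did not pass without HS scramble replicate 2 (-0.37, adjusted p = 0.19) or HS+REC scramble replicate 1 (-0.34, adjusted p = 0.157), and the second passed without HS+REC siLonp1 replicate 1 (-0.55, adjusted p = 0.00842), in the same edgeR quasi-likelihood fits with Benjamini-Hochberg.

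SRF, the factor at the CArG box, lies on chromosome 6 from 43171269 to 43181506. It was at 160.3, 158 and 152 CPM in the Ctrl libraries of the scramble arm, 143, 147 and 128 CPM in its HS libraries and 113, 97.9 and 111 CPM in its HS+REC libraries. Under siLonp1 it stood at 279, 268 and 249 CPM in Ctrl, 231, 239 and 242 CPM in HS and 197, 183 and 207 CPM in HS+REC. HS+REC libraries were the lowest of each arm, and every siLonp1 library was above every scramble library. The HS effect was -0.17 on the log2 scale in scramble (SE 0.07, adjusted p = 0.0526) and -0.16 in siLonp1 (SE 0.07, adjusted p = 0.0565) by edgeR quasi-likelihood with Benjamini-Hochberg, with HS libraries below Ctrl libraries in 3 of 3 in each arm. These passed the limit when HS scramble replicate 2 (-0.21) or Ctrl siLonp1 replicate 3 (-0.20) was left out. By HS+REC SRF had fallen, with a change from Ctrl of -0.54 in scramble (SE 0.07, adjusted p = 5.64e-07) and -0.44 in siLonp1 (SE 0.07, adjusted p = 6.6e-06), again by edgeR quasi-likelihood with Benjamini-Hochberg.

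**Figure D3:**
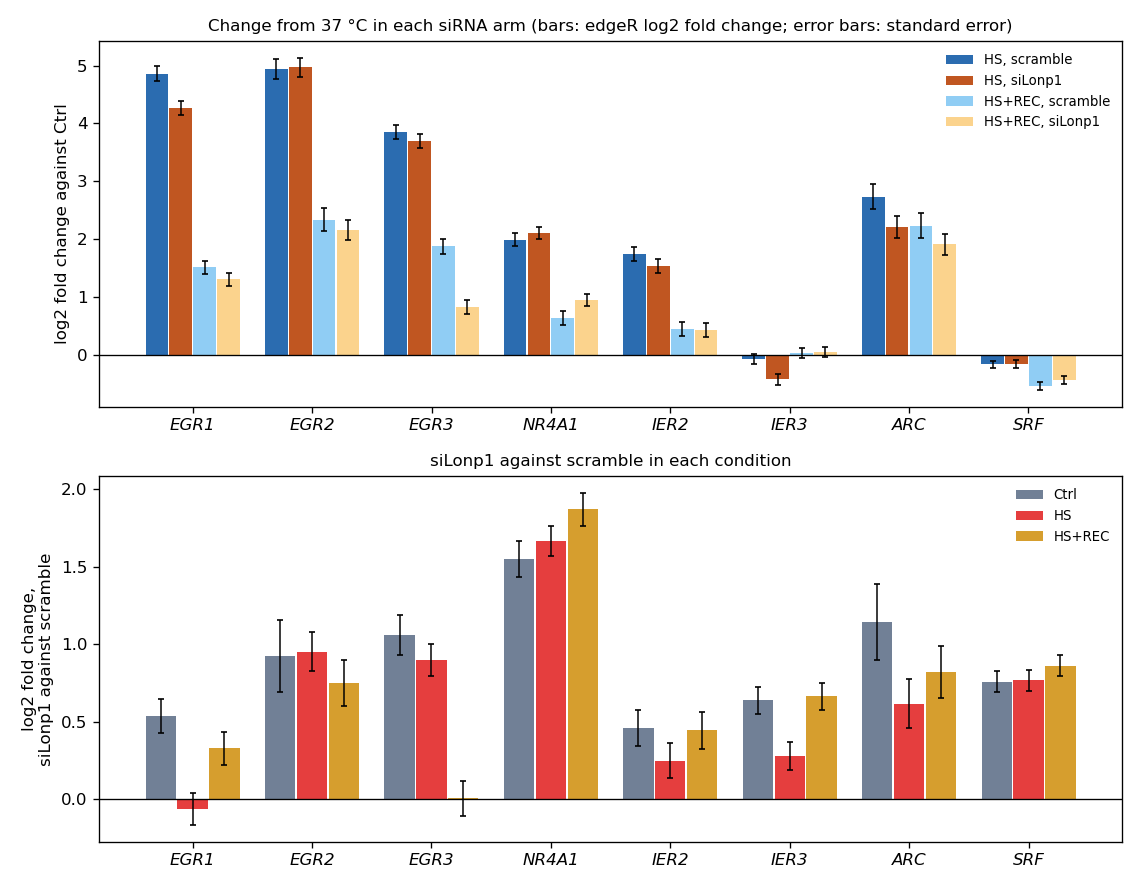
Log2 fold changes with standard errors for the 8 members, with HS and HS+REC against Ctrl in each arm in the upper panel and siLonp1 against scramble in the 3 conditions in the lower panel. The EGR genes show the largest rises in HS, and siLonp1 values are positive except for EGR1 in HS, at -0.06, with EGR3 in HS+REC at 0.01.

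With LONP1 silenced, all 8 genes were higher in unheated cells. At any fold change 8 of 8 were past the FDR limit and higher in Ctrl, against 26.3% of all genes, 6 of 8 in HS against 28.1%, and 7 of 8 in HS+REC against 26.8%. With a fold change above 2 there were 3 in Ctrl (2.63% of all genes), 1 in HS (2.56%) and 1 in HS+REC (2.84%). The median log2 difference of the members was 0.84, 0.69 and 0.71 for Ctrl, HS and HS+REC, against 0.00922, 0.00107 and -0.00277 over all genes tested. NR4A1 rose most, by 1.55, 1.67 and 1.87 for Ctrl, HS and HS+REC (SE 0.12, 0.10 and 0.11), with the highest adjusted p of the 3 at 2.26e-10 by edgeR quasi-likelihood with Benjamini-Hochberg. SRF rose by a near constant 0.76, 0.77 and 0.86 (SE 0.07 each). In Ctrl the other differences were 1.14 for ARC, 1.06 for EGR3, 0.92 for EGR2, 0.64 for IER3, 0.54 for EGR1 and 0.46 for IER2. EGR2 and EGR3 lie near the fold limit, which EGR3 missed at 0.98 both without Ctrl siLonp1 replicate 2 and when scaled by library size only, and which EGR2 passed at 1.05, 1.03 or 1.02 without Ctrl scramble replicate 1, Ctrl scramble replicate 3 or Ctrl siLonp1 replicate 1.

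In heated cells the siLonp1 difference was 0.95 for EGR2, 0.90 for EGR3, 0.62 for ARC and 0.28 for IER3, all past the FDR limit, and EGR2 passed the fold limit at 1.00 without replicate 2 of HS scramble and at 1.03 without replicate 1 of HS siLonp1. IER3 in HS no longer passed without HS scramble replicate 3 (0.19, adjusted p = 0.0902) or when scaled by library size only (0.18, adjusted p = 0.0812), both by edgeR quasi-likelihood with Benjamini-Hochberg. EGR1 differed by -0.06 and IER2 by 0.25 in HS, with overlapping libraries and adjusted p of 0.635 and 0.0688 by edgeR quasi-likelihood with Benjamini-Hochberg. IER2 passed without replicate 2 of HS scramble or replicate 3 of HS siLonp1, at 0.33 and 0.31. In HS+REC the differences were 0.82 for ARC, 0.75 for EGR2, 0.67 for IER3, 0.45 for IER2 and 0.33 for EGR1, all past the limit, though the libraries of IER2 overlapped. EGR1 lost this call without HS+REC siLonp1 replicate 1 (0.17, adjusted p = 0.162, edgeR quasi-likelihood with Benjamini-Hochberg). EGR3 differed by 0.01 (SE 0.11) there, where the mean levels were 28.8 ± 1.38 and 28.9 ± 6.05 CPM (SD, n = 3 libraries).

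Whether silencing changed the response to heat was tested by the interaction terms of the same model. Of 24 such tests over the 8 members 3 passed the FDR limit, all with a negative value, and the other 21 lay between -0.53 and 0.39. For HS, 1 of 8 members passed and was lower, against 1.39% of all genes. This was EGR1, which rose less with heat in siLonp1 by -0.60 on the log2 scale (SE 0.15, adjusted p = 0.0379, edgeR quasi-likelihood with Benjamini-Hochberg). It passed in 4 of the 12 fits that each leave out 1 library, with values from -0.70 to -0.52 and an adjusted p of up to 0.12, and was lost without any of Ctrl scramble replicates 2 and 3, Ctrl siLonp1 replicates 1 and 2, HS scramble replicates 1 and 2, and HS siLonp1 replicates 1 and 3. For HS+REC against Ctrl 1 of 8 was lower (0.896% of all genes) and for HS+REC against HS 1 of 8 (0.288%), and both were EGR3. EGR3 in siLonp1 started higher, was higher in HS and met the scramble level in HS+REC, so that its interaction was -1.05 for HS+REC against Ctrl (SE 0.17, adjusted p = 0.00261) and -0.89 for HS+REC against HS (SE 0.15, adjusted p = 0.00277), both by edgeR quasi-likelihood with Benjamini-Hochberg. Both passed the FDR limit in 12 of 12 fits without 1 library, from -1.17 to -0.89 and from -1.005 to -0.73. The first was under a fold change of 2 without Ctrl siLonp1 replicate 2 (-0.97) or HS+REC siLonp1 replicate 3 (-0.89), and the second above it without HS+REC siLonp1 replicate 1 (-1.005). NR4A1 had an interaction of 0.32 for HS+REC, which passed only without HS+REC siLonp1 replicate 3 (0.47, adjusted p = 0.0411, edgeR quasi-likelihood with Benjamini-Hochberg). The depth of silencing also differed between the conditions, with LONP1 at 9.26%, 5.48% and 12.4% of its scramble level in Ctrl, HS and HS+REC. Its own interactions were -0.76 for HS, 0.43 for HS+REC and 1.18 for HS+REC against HS, all past the FDR limit. The part of this in the interactions of the members was not tested.

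Ligands of the EGF receptor were listed as possible signals upstream of early genes, and 3 of them rose. The receptor gene EGFR itself did not pass the filter, and a link from these ligands to the members was not tested. Of 7 ligands listed 4 passed the filter. HBEGF, a membrane-shed ligand, was called higher in HS in both arms, with log2 fold changes of 1.22 and 1.02 (1 of 4 ligands, against 2.94% and 3.42% of all genes), though the second was under the limit without Ctrl siLonp1 replicate 1 (0.995), HS siLonp1 replicate 1 (0.98) or HS siLonp1 replicate 2 (0.97), and when scaled by library size only (0.97). The ligands AREG and EREG were called higher in HS+REC of both arms, AREG at 1.43 and 1.86 and EREG at 1.50 and 1.58, which makes 2 of 4 ligands against 3.78% and 4.51% of all genes. With siLonp1 all 4 tested ligands were past the FDR limit and higher in each condition, against 26.3%, 28.1% and 26.8% of all genes in Ctrl, HS and HS+REC. HBEGF stood at 1.38, 1.18 and 1.55 and AREG at 1.08, 1.50 and 1.51 for Ctrl, HS and HS+REC, with AREG in Ctrl just under the fold limit without Ctrl scramble replicate 3 (0.997).

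The receptors and the ERK cascade, from ERBB2 and ERBB3 through RAS, RAF and MEK to ERK and RSK kinases, had small fold changes in mRNA with heat. Of 20 genes 19 passed the filter, and EGFR did not. Their log2 fold changes in HS lay between -0.30 and 0.43 in scramble and between -0.34 and 0.62 in siLonp1, with medians of -0.01 and -0.09. At any fold change 3 were past the FDR limit and higher in scramble and 3 in siLonp1, namely BRAF, MAP2K1 and SOS2 in each arm, and 2 and 6 were lower, where 18.6% and 20.2% of all genes were higher and 17.3% and 22.1% lower. These 3 fall outside the rule for named genes and were chosen after their values were seen, as was MAPK3. With siLonp1 9 of 19 were higher at any fold change in Ctrl (26.3% of all genes), 10 in heated (28.1%) and 5 in recovered cells (26.8%), the last being no larger a share than that of all genes, while 1, 2 and 3 were lower (22.9%, 26.7% and 27.3% of all genes). Among those higher was MAPK3, the ERK1 kinase, at 0.88, 1.03 and 1.06. The 11 stress kinase and CREB genes had median log2 fold changes of -0.06 and -0.15 in HS, with values from -0.44 to 0.40 over both arms, and 2 and 3 of them were past the FDR limit and higher and 3 and 5 lower. In HS+REC 1 was higher in each arm (21.8% and 24.6% of all genes), and 4 and 6 were lower (20.5% and 26.6%). With siLonp1 5 of the 11 were past the FDR limit and higher in each condition, and 0 were lower. The shares of all genes there were 26.3%, 28.1% and 26.8% higher and 22.9%, 26.7% and 27.3% lower. The 5 tested cofactors of SRF, of 6 listed, had medians of 0.03 and -0.12 in HS, with values from -0.45 to 0.19 over both arms, and 1 and 2 were past the FDR limit and lower. In HS+REC their medians were -0.20 and -0.32, and 3 and 4 of the 5 were past the limit and lower (20.5% and 26.6% of all genes). In scramble 1 was higher and in siLonp1 0 (21.8% and 24.6%). With siLonp1 2, 0 and 0 were higher in Ctrl, HS and HS+REC, and 1 was lower in each, against the shares of all genes just given for siLonp1.

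Some relatives of the members and other immediate early genes rose with heat too. Of 5 relatives, the nuclear receptor NR4A3 was under 1 CPM in every Ctrl library and every HS scramble library and passed the filter only through groups where it is high, so it is left out of the counts. Of the other 4, 3 were called higher in HS in scramble (2.94% of all genes) and 2 in siLonp1 (3.42%), and 2 in HS+REC of each arm (3.78% and 4.51%). At any fold change 3 were higher in HS+REC in each arm (21.8% and 24.6% of all genes) and 1 lower (20.5% and 26.6%). The log2 fold changes of NR4A3, 2.53 and 2.79 in HS and 3.29 and 3.90 in HS+REC, start from 4 to 7 counts in a Ctrl scramble library and are given only as a description. IER5 rose by 2.36 and 2.38 and EGR4 by 1.28 and 1.88 in HS. NR4A2, outside the rule for named genes and chosen after its values were seen, was called in scramble only, at 1.19 against 0.66 in siLonp1, and this difference did not pass as an interaction (-0.53). EGR4 had an interaction of 1.15 for HS+REC (adjusted p = 0.013, edgeR quasi-likelihood with Benjamini-Hochberg), opposite in sign to that of EGR3, but lost it without Ctrl scramble replicate 2 (0.94, adjusted p = 0.076). Of 17 other immediate early genes tested, 10 were called higher in HS in scramble (2.94% of all genes) and 7 in siLonp1 (3.42%). The medians of the 17 were 1.23 and 0.92, and 1 was past the FDR limit and lower in scramble (17.3% of all genes). FOS, a subunit of AP-1, rose by 6.03 and 5.91 and changed by -3.75 and -3.95 from HS to HS+REC. ATF3 rose by 1.93 and 2.57, FOSB by 2.31 and 2.03 and MCL1 by 1.26 and 1.50 in HS. CTGF and CYR61, which encode matricellular proteins, were called in HS+REC of both arms, at 1.48 and 1.27 and at 1.44 and 1.28. CYR61 rose less with HS in siLonp1, by 0.55 against 1.23, an interaction of -0.67 (adjusted p = 0.0121, edgeR quasi-likelihood with Benjamini-Hochberg) that was lost without Ctrl siLonp1 replicate 1 (-0.61, adjusted p = 0.0549). Among the 17, interactions past the FDR limit numbered 3 for HS (1.39% of all genes) and 1 for HS+REC (0.896%), with a negative sign. For HS+REC against HS 3 passed with a positive sign (1.09% of all genes). In HS+REC 6 of the 17 were called higher than in Ctrl in scramble (3.78% of all genes) and 8 in siLonp1 (4.51%), and 3 were past the FDR limit and lower in each arm. With siLonp1 13 of the 17 were past the FDR limit and higher in Ctrl and 2 lower, 10 and 3 in HS, and 10 and 1 in HS+REC, where 26.3%, 28.1% and 26.8% of all genes were higher and 22.9%, 26.7% and 27.3% lower. The 5 relatives differed with siLonp1 by -0.19 to 0.56 in Ctrl without passing the limit, and of the 4 other than NR4A3, 1 was higher and 1 lower in HS, close to the shares of all genes, and 2 were higher and 1 lower in HS+REC.

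**Figure D4:**
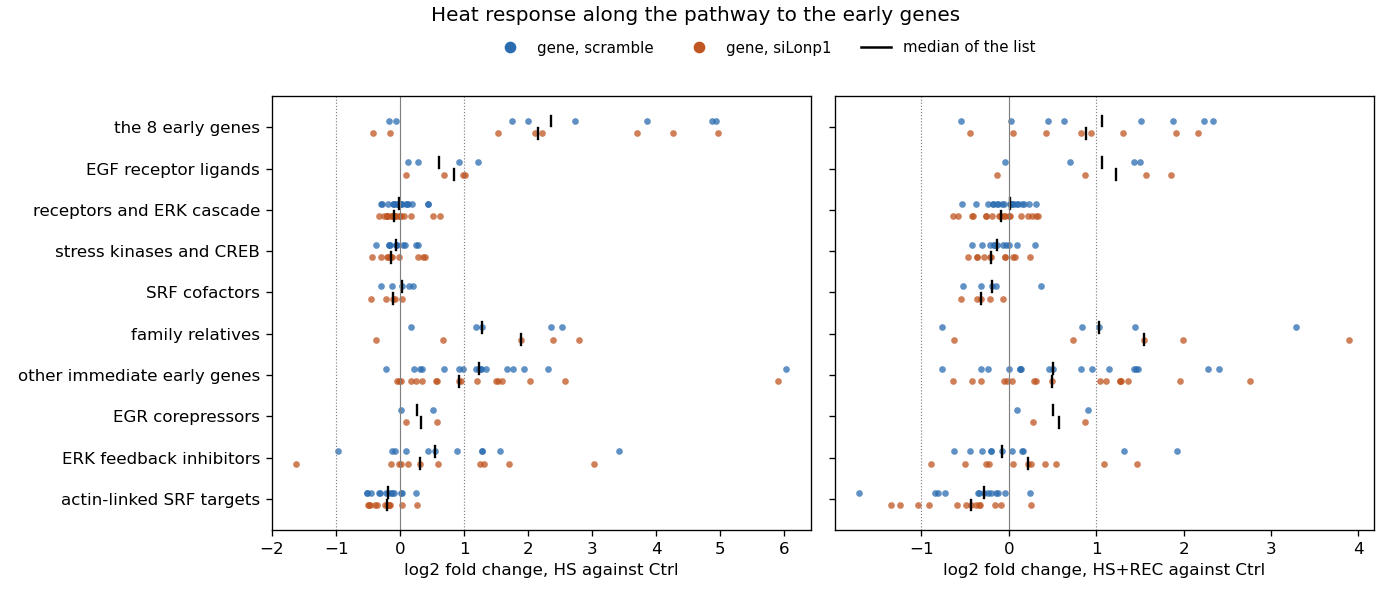
Log2 fold changes in HS and HS+REC against Ctrl in both arms, for the tested genes of each list but the heat shock control genes. Each dot is a gene, with a bar at the list's median and dotted lines at a fold change of 2. The medians of the members and of the other immediate early genes lie above 0, and in HS those of receptors, kinases and SRF cofactors lie between -0.15 and 0.03.

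Among the brakes of the response, 4 of 11 ERK feedback inhibitors were called higher in HS in both arms (2.94% and 3.42% of all genes), and 1 was called lower in siLonp1 (1.15% of all genes) and past the FDR limit and lower in scramble (17.3%), at -1.62 and -0.97. In HS+REC 2 were called higher in each arm (3.78% and 4.51% of all genes). At any fold change 2 were higher and 5 lower than in Ctrl in scramble (21.8% and 20.5% of all genes), and 6 higher and 4 lower in siLonp1 (24.6% and 26.6%). DUSP1, a phosphatase of MAP kinases, rose by 3.42 on the log2 scale in scramble and 3.03 in siLonp1, and changed by -1.49 and -1.57 from HS to HS+REC. SPRY4, an inhibitor of receptor signalling, rose by 1.56 and 1.71, and the phosphatases DUSP5 and DUSP2 by 1.28 and 1.31 and by 1.27 and 1.25. ERRFI1, an inhibitor of the EGF receptor, was called in HS+REC at 1.32 and 1.09. With siLonp1 8 of the 11 were past the FDR limit and higher in Ctrl (26.3% of all genes), 7 in HS (28.1%) and 7 in HS+REC (26.8%), and 1 was lower in HS (26.7%) and 1 in HS+REC (27.3%). DUSP5 was called in each, at 1.70, 1.73 and 2.20. Interactions past the FDR limit numbered 1 for HS, with a negative sign (1.39% of all genes), and 2 for HS+REC (0.686%) and 3 for HS+REC against HS (1.09%), with a positive sign. Those of DUSP5 for HS+REC were 0.50 against Ctrl (adjusted p = 0.0194) and 0.47 against HS (adjusted p = 0.0232) by edgeR quasi-likelihood with Benjamini-Hochberg. The first was lost without Ctrl scramble replicate 1 (0.47) or 2 (0.47), Ctrl siLonp1 replicate 2 (0.44) or HS+REC scramble replicate 1 (0.46) and with only the groups compared in the fit (adjusted p = 0.0526, edgeR quasi-likelihood with Benjamini-Hochberg), and the second without replicate 1 (0.47) or 2 (0.47) of HS scramble, HS siLonp1 replicate 3 (0.44) or HS+REC scramble replicate 1 (0.43). Of the corepressors of EGR proteins, NAB2, itself an EGR target, rose by 0.51 and 0.58 in HS and by 0.91 and 0.88 in HS+REC against Ctrl, under a fold change of 2. NAB1 and NAB2 were both past the FDR limit and higher with siLonp1 in each condition, by 0.53 to 0.78, where 26.3%, 28.1% and 26.8% of all genes were. The NAB genes fall outside the rule for named genes and were chosen after their values were seen.

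Among cytoskeletal genes listed as targets of SRF and its actin-linked cofactors, a control not measured here, more were lower than higher after heat, and more higher than lower with siLonp1. Of 13 tested, 6 were past the FDR limit and lower in HS in scramble (17.3% of all genes) and 9 in siLonp1 (22.1%), and in HS+REC 9 (20.5% of all genes) and 11 (26.6%) were lower than in Ctrl. TAGLN, which encodes an actin-binding protein, had fallen in HS+REC, with log2 fold changes of -1.71 in scramble and -1.24 in siLonp1. FHL2 was the 1 gene past the FDR limit and higher in HS, by 0.25 and 0.26, and in HS+REC, by 0.25 in each arm, and was named after its values were seen. With siLonp1 11 of 13 were higher at any fold change in Ctrl (26.3% of all genes), 11 in heated (28.1%) and 10 in recovered cells (26.8%), with TAGLN at 2.22, 2.38 and 2.69. These lists are described by counts and medians, and no list was tested against another.

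The members differed among themselves in their profiles over the 6 group means, each profile being log2 CPM centred on its own mean and not scaled. By the root mean square difference, IER3 and SRF were the closest pair at 0.31, followed by EGR1 with EGR2 at 0.47 and EGR1 with EGR3 at 0.49, and EGR2 and IER3 were the farthest apart at 2.14. Without scaling, 2 flat profiles lie close whatever their shape. The median difference of all genes was 0.37 from IER3 and 0.49 from SRF, against 1.93 from EGR1. In HS+REC against Ctrl IER3 differed by 0.02 in scramble and 0.05 in siLonp1, and SRF by -0.54 and -0.44, so a like shape of this pair is not shown. The profile of EGR2 spanned 5.86 on the log2 scale and that of IER3 0.76, with SRF at 1.30. The same measure over all genes tested gave the genes most like each member. For EGR1 these were SNORA29 (0.53), FOS (0.59) and DUSP1 (0.71), for EGR2 FOS (0.60), DUSP1 (0.76) and RRAD (0.84), and for EGR3 DUSP1 (0.42), SNORA29 (0.58) and FAM46A (0.60). For NR4A1 they were DUSP5 (0.33), FOSB (0.44) and HBEGF (0.47), and for ARC C10orf10 (0.22), USPL1 (0.24) and FOSB (0.26). IER2 was closest to ZNF461 (0.13), KLF10 (0.16) and GADD45B (0.17). The profiles of IER3 and SRF were closest to AGFG1, MIR4435-2HG and MET (0.07 each) and to FAM110C (0.04), ASPRV1 (0.07) and PXYLP1 (0.07). These values describe 6 group means.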

How the data were processed

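RNA of SW620 cells was sequenced in 18 libraries. The authors prepared TruSeq stranded mRNA libraries, aligned paired ends to hg38 with STAR 2.7.3a and counted reads on UCSC genes with featureCounts in R 3.6.3. The deposited values are raw counts, and the strand setting, reads of several genes and duplicates are not described. From these counts, the genes over 1 CPM in 3 or more libraries were scaled by TMM and tested with edgeR 4.0.16 (quasi-likelihood, R 4.3.3, limma 3.58.1) in 1 model with a mean for each of 6 groups and 12 contrasts, with Benjamini-Hochberg adjustment over 12832 genes. Called means an FDR not above 0.05 together with a fold change over 2. SE is the log2 fold change over the square root of F. Prior counts were 0.125 for fold changes and 2 for log2 CPM. CPM is scaled by TMM. The common biological coefficient of variation was 0.0658, and depth allowed 38 to 65 counts for ARC and EGR2 in Ctrl scramble. The steps were tested on simulated data. Gene positions are from GENCODE and promoters from RefSeq.

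The members, lists and rules were chosen with earlier results of these data known. Genes named are the members, LONP1, the heat shock control genes, the list genes called in a heat contrast of both arms (at most 6 of a list, by mean change), the cell type markers and the 3 genes of most like profile per member, and those named after their values were seen are marked so. Alternatives were RLE factors, library size only, no filter, CPM above 1 in all 18 libraries, DESeq2 1.42.0, only the groups compared, a replicate block, each library left out, FDR 0.01, any fold change and a prior count of 0.5. The assays of the paper other than RNAseq were left out, since the files hold none of them.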

Additional observations from a re-analysis of the deposited data

Results flagged for a closer look

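Interaction terms of the edgeR quasi-likelihood model, which test whether an effect differs between siLonp1 and scramble, passed the FDR limit for 3 values of the members. EGR1 rose less with HS in siLonp1, with a difference of -0.60 on the log2 scale, but passed in only 4 of 12 fits that each leave out 1 library. EGR3 differed by -1.05 for HS+REC against Ctrl and by -0.89 for HS+REC against HS, each passing in 12 of 12 such fits. These share libraries, and no cause was tested.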

How the results depend on the processing

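Leaving out 1 library at a time kept the direction and the side of the FDR limit for 487 of 516 values of the members, a total without the 17 interactions that are given only as a range, and 12 lost the limit, 8 gained it and 9 changed sign. Counts of members called then ranged from 6 to 6 for HS in each arm, from 4 to 4 and 3 to 4 for HS+REC, from 5 to 5 and 4 to 5 for HS+REC against HS, and from 2 to 4, 1 to 2 and 1 to 1 for siLonp1 in Ctrl, HS and HS+REC. Members past the FDR limit ranged from 0 to 2 for the HS interaction, from 1 to 2 for the HS+REC interactions, and from 8 to 8, 5 to 7 and 6 to 7 for siLonp1. Of those 516, the values that changed sign ranged from -0.171 to 0.0370 (IER3, HS in scramble), -0.0523 to 0.0979 (IER3, HS+REC in scramble), -0.00288 to 0.196 (IER3, HS+REC against HS in scramble), -0.158 to 0.0101 (EGR1, siLonp1 in HS) and -0.108 to 0.169 (EGR3, siLonp1 in HS+REC), none of them past the limit with all libraries. Of the 17 interactions, 6 changed sign and 0 of their 204 values passed the limit, and of 113 values under the other alternatives 4 changed sign (IER2 and SRF) and 1 passed, EGR1 for HS+REC against HS with no filter at 0.374. Called interactions ranged from 0 to 0, 0 to 1 and 0 to 1. With CPM above 1 in all 18 libraries EGR2 and ARC were not tested, and the HS+REC counts were 2 and 1. Other counts of members called were lower too. Those for HS had included both genes, those for HS+REC against HS EGR2, and that for siLonp1 in Ctrl ARC. At any fold change the counts were 7 and 7 for HS+REC in either direction, 8, 6 and 7 for siLonp1, and 1 and 1 for the interactions with HS and with HS+REC against HS. With no filter, 2 and 3 members passed these interactions, 2 passed the first with only the groups compared, and 0 at FDR 0.01. Library size only turned IER3 in HS+REC to -0.0579 in scramble and -0.0282 in siLonp1, and EGR3 for siLonp1 in HS+REC to -0.0666, and took EGR3 for siLonp1 in Ctrl to 0.985 and HBEGF in HS siLonp1 to 0.967, under a fold change of 2, and IER3 for siLonp1 in HS to 0.183 (adjusted p = 0.0812, edgeR quasi-likelihood with Benjamini-Hochberg). SRF in HS passed the limit in both arms by library size only and with only the groups compared, and in scramble with DESeq2. IER2 for siLonp1 in HS and the HS interaction of IER3 passed it with no filter or only the groups compared, and ARC for HS+REC against HS in siLonp1 and the other IER3 interaction with no filter. Library size only moved 4 group levels of the members by over 1 SD, those of EGR3, NR4A1 and SRF in Ctrl scramble and of SRF in HS siLonp1. LONP1 also moved by over 1 SD, from 221 to 233 CPM in Ctrl scramble and from 11.7 to 11.3 CPM in HS siLonp1. The causes were not tested. RLE factors kept 79 of 79 values and DESeq2 78. The replicate block turned EGR3 for siLonp1 in HS+REC to -0.00588 and kept 96 of 96 values on their side of the limit. Same-numbered libraries did not pair, with correlations of deviations from -0.38 to 0.46 in 45 pairs, and 6 of 18 libraries correlated best with their own number. Of the 67 values of list genes and LONP1, recomputed 902 times, 11 lost the limit, those of EGR4, CYR61 and DUSP5, of which 1 (DUSP5, HS+REC interaction) with only the groups compared. With a prior count of 0.5, 21 of 24 genes of like profile were kept. Counts were low for ARC, EGR2 and NR4A3 in Ctrl scramble.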
